A study of Sus scrofa with 16 samples.

Results

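The interferon response genes described here are IRF1, ISG15, GBP2, IFIT2, UBD and MX1, and their levels are given for the liver and the subcutaneous backfat of pigs of the Iberian breed. Every probe set of the array's annotation that names 1 of these genes was taken, which gave 8 probe sets for the 6 genes, out of 10069 probe sets that name a single gene and 6765 such genes. IFIT2 had 3 probe sets and each of the other genes had 1. All pigs were slaughtered at 211 days and ate the same pelleted diet before the restriction began. The 16 arrays form 8 groups of 2, from liver or backfat, males or females, and a high feeding level or a level restricted by 20%, called low here. Each tissue thus had 4 arrays at each feeding level, 2 of females and 2 of males. The study's design text counts 8 animals. Castration of the males is neither stated nor denied in the labels, which name no transgene, drug or deletion in any group. Females are numbered 18 to 21 in liver and 20 to 23 in backfat, with numbers 20 and 21 on opposite feeding levels in the 2 tissues, so only the males, 14 to 17, can be followed from tissue to tissue. The genes were chosen by their own measured levels across tissue and feeding level on these arrays, so those differences are given as a description with no test, and only the sex difference of these genes was tested.

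Interferons are secreted proteins that cells release after sensing viral nucleic acid or during inflammation. Type I interferons act through the receptor chains IFNAR1 and IFNAR2 and on to STAT2 and IRF9, while interferon gamma, made mainly by T and natural killer cells, acts through the receptor chains IFNGR1 and IFNGR2. Both routes switch on genes that block virus growth or raise antigen display. IRF1 is a transcription factor that carries the interferon gamma signal and drives antigen processing genes. GBP2 is a guanylate-binding GTPase that acts against microbes inside cells, and UBD (also called FAT10) is a ubiquitin-like protein that sends proteins to the proteasome and is induced by interferon gamma together with tumour necrosis factor. ISG15 is a ubiquitin-like protein attached to other proteins after type I interferon, IFIT2 binds RNA and restrains translation of viral messages, and MX1 is a dynamin-like GTPase that blocks viruses. Liver holds many resident macrophages, and the adipose tissue of fat animals can hold them too.

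The values are GCRMA expression values on a log2 scale, where a step of 1 is a doubling and where most silent probe sets lie below 4. Each tissue was marked by the genes of its main cell type, with some signal of the other. Summed hepatocyte markers lay between 17.16 and 17.44 (log2) in liver, and the adipocyte genes ADIPOQ, LEP and LIPE stayed below 4 on every liver array, while FABP4, the remaining adipocyte marker, stood above 4 on 2 of 8. In backfat the hepatocyte gene ALB was above 4 on 7 of 8 arrays, with a mean of 7.67 against 15.17 in liver. EIF1AY, a gene of the Y chromosome, lay between 8.69 and 9.47 on male arrays and between 2.78 and 2.97 on female arrays. Backfat female 21, on the high level, stood apart from the other arrays. Its added control transcript BioB read 5.89 against 6.96 to 7.73 on the other 15 arrays, and its actin 3′ probe set exceeded the 5′ one by 2.19 against 2.85 to 3.41 on the other backfat arrays. Its mean Pearson's r with the other backfat arrays was 0.978, against 0.984 to 0.988 for those arrays. The feeding, sex and tissue differences of the 6 genes and the marker sums that involve backfat are therefore also given without it.

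In backfat, IRF1, UBD and GBP2 were higher on the high feeding level than on the low one, with no overlap between the 4 arrays of each level. The mean level was 3.09-fold higher for IRF1, 2.98-fold for UBD and 1.90-fold for GBP2. ISG15 and IFIT2 had higher means on the high level as well, with overlapping arrays, and MX1 did not share this direction. In bulk tissue, fewer cells of a type and less RNA per cell cannot be told apart.

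IRF1 read 8.86 in female 21, 7.67 in female 22, 8.99 in male 14 and 7.50 in male 17 on the high level (mean 8.26 ± 0.78, SD, n = 4). On the low level it read 6.48 in female 20, 6.89 in female 23, 6.55 in male 15 and 6.59 in male 16 (6.63 ± 0.18, SD, n = 4). The low arrays lay within a narrow band, while the high arrays split into female 21 and male 14 above the other pair. The fitted difference, low minus high, was -1.63 ± 0.39 (log2, SE), and without female 21 it was -1.33 ± 0.38. With each of the 8 arrays left out in turn, the fitted difference ranged from -2.00 without male 17 to -1.26 without male 14.

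UBD read 8.85 in female 21, 8.98 in female 22, 8.72 in male 14 and 9.23 in male 17 on the high level (8.94 ± 0.22, SD, n = 4). The low arrays read 7.45 in female 20, 7.21 in female 23, 7.57 in male 15 and 7.24 in male 16 (7.37 ± 0.17, SD, n = 4). The lowest high array stood 1.15 above the highest low array, a wider gap than the 0.61 of IRF1 or the 0.21 of GBP2. The fitted difference was -1.58 ± 0.17 (log2, SE) and -1.61 ± 0.19 without female 21. The fitted difference stayed between -1.70 and -1.45 when each array in turn was left out.

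GBP2 read 8.78 in female 21, 7.98 in female 22, 8.54 in male 14 and 8.53 in male 17 on the high level (8.46 ± 0.34, SD, n = 4). Its low-level values were 7.30 in female 20, 7.77 in female 23, 7.47 in male 15 and 7.59 in male 16 (7.53 ± 0.20, SD, n = 4). Female 22 was the lowest high array and female 23 the highest low array, so the females of the 2 levels came closest. The fitted difference was -0.93 ± 0.21 (log2, SE) and -0.73 ± 0.16 without female 21.

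ISG15 read 8.83 in female 21, 7.17 in female 22, 6.23 in male 14 and 6.83 in male 17 on the high level (7.27 ± 1.11, SD, n = 4). At the low level the values were 5.87 in female 20, 5.76 in female 23, 6.71 in male 15 and 6.86 in male 16 (6.30 ± 0.57, SD, n = 4). Both high females exceeded both low females, with means of 7.999 and 5.82, while in males the low mean was the higher by 0.26. The fitted difference over both sexes was -0.96 ± 0.36 (log2, SE), and without female 21 it was -0.55 ± 0.19. The value thus depended on this array.

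IFIT2, by its brightest probe set, read 7.53 in female 21, 7.45 in female 22, 6.54 in male 14 and 7.05 in male 17 on the high level (7.14 ± 0.45, SD, n = 4). Low-level arrays read 6.45 in female 20, 6.58 in female 23, 6.92 in male 15 and 6.62 in male 16 (6.65 ± 0.20, SD, n = 4). Low minus high was -0.98 in females and -0.02 in males. The fitted difference was -0.50 ± 0.16 (log2, SE), and -0.48 ± 0.18 without female 21. Male 14, the high array with the lowest IFIT2 value, made the levels overlap. The second IFIT2 probe set gave a smaller difference, -0.18 ± 0.15, with the high arrays between 6.08 and 6.69 and the low arrays between 6.15 and 6.52. The remaining IFIT2 probe set stood above 4 only in backfat female 21, at 5.75, and entered no fit.

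MX1 read 7.84 in female 21, 7.85 in female 22, 7.52 in male 14 and 6.94 in male 17 on the high level (7.54 ± 0.43, SD, n = 4). Under restriction the values were 7.69 in female 20, 7.66 in female 23, 7.44 in male 15 and 7.97 in male 16 (7.69 ± 0.22, SD, n = 4). The levels overlapped, with the highest and the lowest value both in males. The fitted difference was 0.15 ± 0.19 (log2, SE) and was 0.15 ± 0.22 without female 21, 0.007 without male 17 and 0.018 without male 16.

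**Figure D1:**
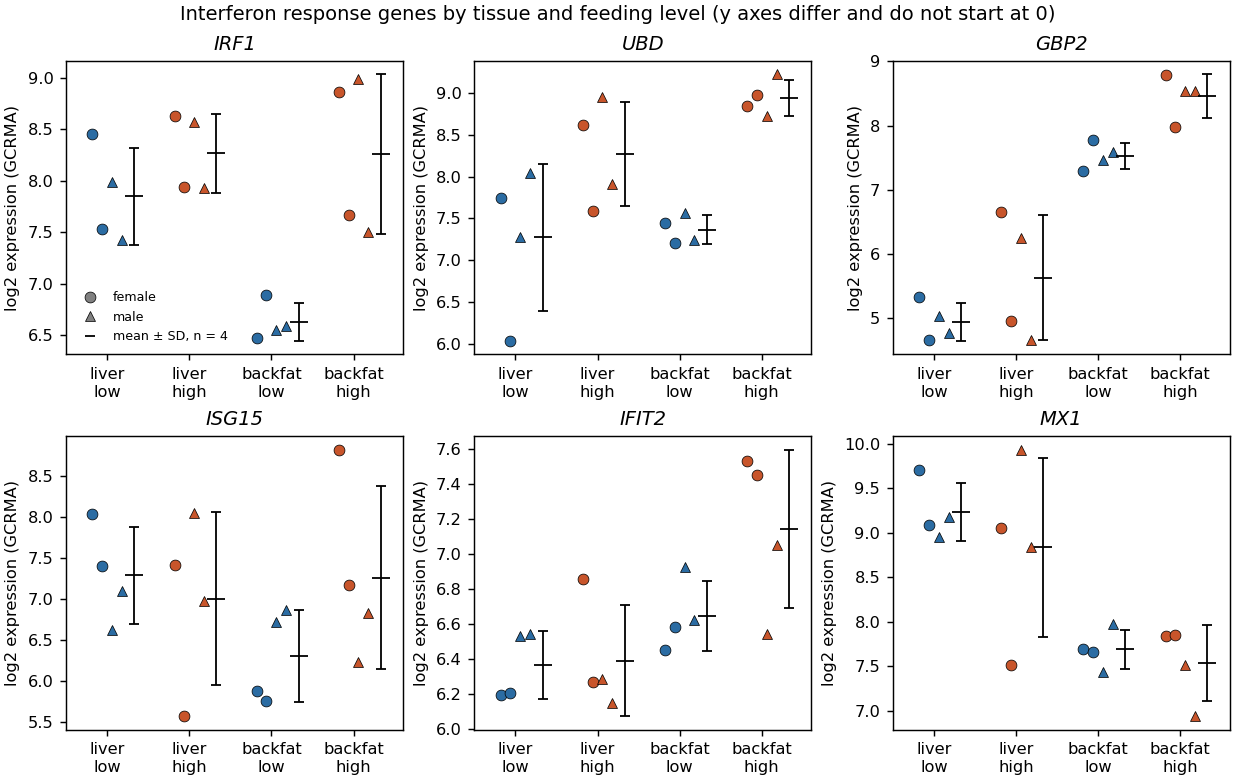
Log2 GCRMA expression (y axis, a separate scale for each gene that does not start at 0) of the 6 genes in each tissue and feeding level, with 1 point an array, circles for females, triangles for males, and bars for the mean ± SD of 4 arrays. In backfat the low and high points of IRF1, UBD and GBP2 do not overlap, those of ISG15, IFIT2 and MX1 do, and every backfat value of GBP2 lies above every liver value.

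Over the 6 genes in backfat, 5 differences lay below 0 and 1 above it, with a median of -0.94 (log2) beside 0.006 over all 12686 probe sets tested. Every low array lay below every high array for 3 of the 6 genes and for 3.36% of all probe sets tested, and every low array above every high array for none of the 6 and for 3.25% of all. Since the genes were chosen on this contrast, nothing is read from these counts. Over the whole array, limma called 0 probe sets (0%) for feeding in backfat at a Benjamini-Hochberg adjusted p below 0.05, and 1410 had an unadjusted p below that value.

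Within each sex, IRF1, UBD and GBP2 had lower means on the low level in backfat in both sexes. Low minus high was -1.58 in females and -1.68 in males for IRF1, -1.59 and -1.57 for UBD, and -0.85 and -1.01 for GBP2. In each of these 6 pairs of groups, both high arrays exceeded both low arrays, which follows from the lack of overlap given above. For MX1 low minus high was -0.17 in females and 0.48 in males. With 2 arrays in each group, no error is given for these values, and the difference between the sexes in the feeding response was not tested for these genes.

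The order of the arrays differed between the genes. IRF1 and GBP2 were highest in female 21 and male 14, whereas UBD was highest in male 17 and female 22. ISG15 and IFIT2 were both highest in females 21 and 22, and both placed male 14 among the 3 lowest arrays. GBP2 and IRF1 ranked the low arrays alike, with female 23 first, then males 16 and 15 and female 20 last.

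**Figure D2:**
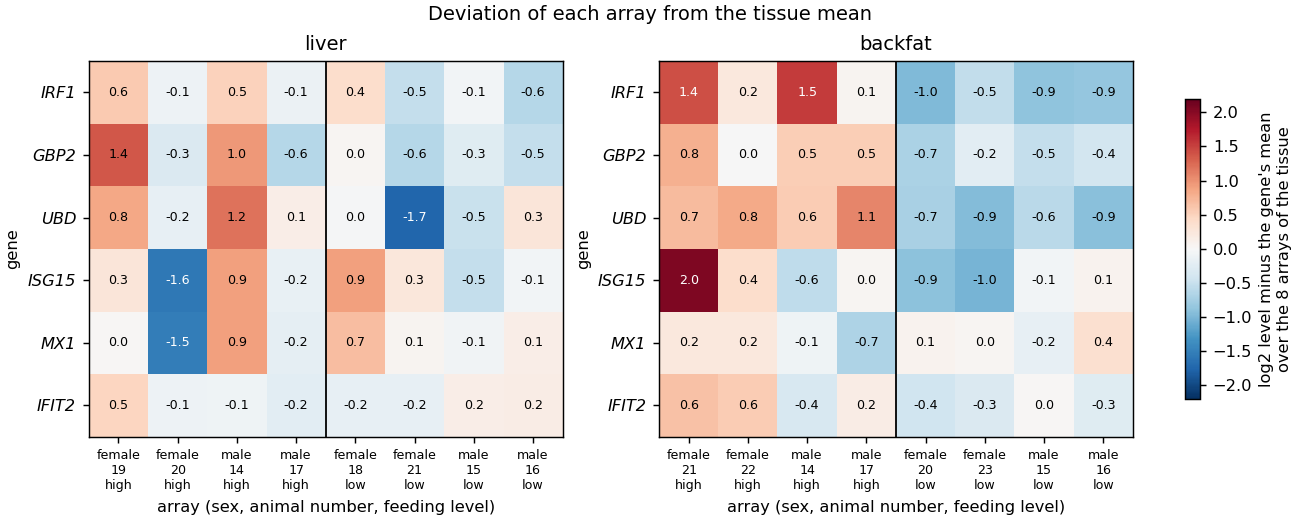
Deviation of each array (columns, with sex, animal number and feeding level) from the gene's mean over the 8 arrays of its tissue (log2 colour scale, with the value rounded to 1 decimal in each cell), with the 4 high arrays to the left of the line in each panel. IRF1 and UBD are above their mean on all 4 high backfat arrays and below it on all 4 low ones, and in liver ISG15 and MX1 share their 2 highest arrays, male 14 and female 18, and their lowest, female 20.

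Leukocyte markers, like IRF1, UBD and GBP2, were higher on the high backfat arrays. The summed level of 5 leukocyte markers ran from 7.43 to 8.37 (log2) on the low arrays and from 8.60 to 9.92 on the high arrays, and up to 9.02 without female 21, so the levels did not overlap. Among the high arrays, male 17 had the lowest leukocyte sum (8.60), with the lowest IRF1 but the highest UBD (9.23). Female 21 had the highest sum (9.92) and the highest GBP2, but its UBD of 8.85 was below that of male 17. UBD thus did not follow the leukocyte sum within the high level. PTPRC, the gene of the common leukocyte antigen CD45, was below 4 on all 8 backfat arrays. The sum of 8 macrophage markers ran from 7.82 to 8.80 on the low arrays and from 8.56 to 10.27 on the high arrays, or to 9.69 without female 21. MARCO, a scavenger receptor of macrophages, was below 4 on all of them. All 8 T and natural killer cell markers measured, CD3E and PRF1 among them, were below 4 on every backfat array. On every liver array MARCO and 6 of these 8 markers, again with CD3E and PRF1, were below 4 too. The absence of a cell type from backfat is therefore not read from these probe sets.

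Singly, none of these markers passed limma's test for feeding in backfat. CD53, a leukocyte tetraspanin, differed by -1.61 ± 0.40 (log2, SE, low minus high, adjusted p = 0.262), CD163, a macrophage receptor for haemoglobin, by -1.48 ± 0.32 (adjusted p = 0.219) and AIF1, a macrophage protein, by -1.35 ± 0.29 (adjusted p = 0.212). Of the 7 macrophage markers tested, 6 lay below 0 and 1 above it, CD5L, a protein secreted by macrophages, at 0.21 ± 0.38 (adjusted p = 0.862). Summed adipocyte markers lay between 15.01 and 15.21 on the low arrays and between 14.97 and 15.62 on the high arrays. Without backfat female 21 the high arrays lay between 14.97 and 15.20. FABP4 had the highest values in this sum. LEP, the gene of the adipocyte hormone leptin, did not overlap between the levels, at 7.46 ± 0.41 on low and 9.52 ± 1.05 on high (SD, n = 4), a difference of -2.06 ± 0.40 (limma adjusted p = 0.203). Hepatocyte markers summed to between 7.59 and 11.21 on low and between 5.78 and 9.71 on high backfat arrays. Without backfat female 21 the hepatocyte sum on the high arrays lay between 7.14 and 9.71. The part of cell makeup in the differences of the 6 genes was not tested.

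**Figure D3:**
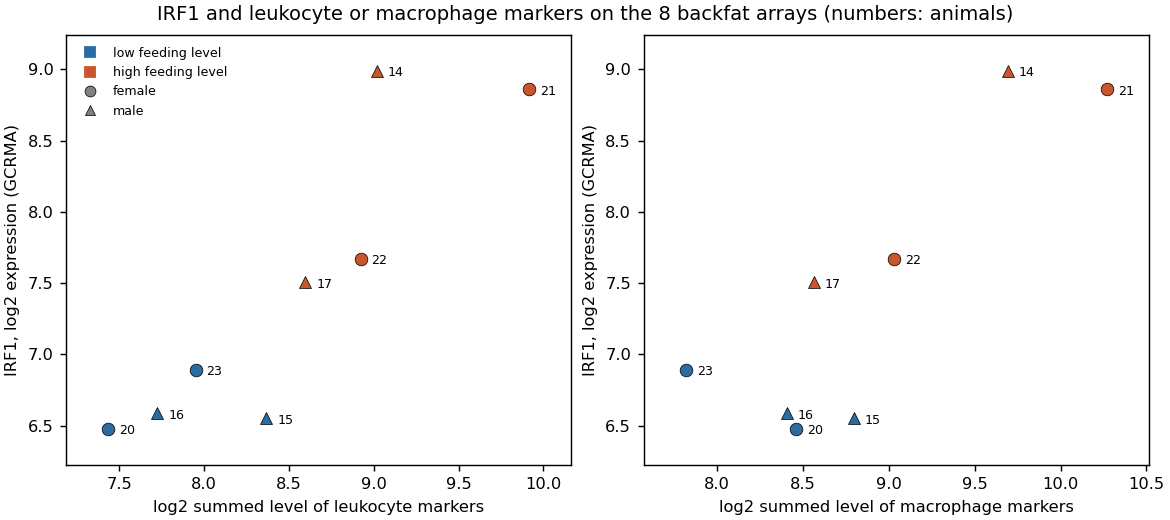
IRF1 level (y axis, log2 GCRMA) against the log2 summed level of 5 leukocyte markers (left) or 8 macrophage markers (right) on the 8 backfat arrays, labelled by animal number. Female 21 and male 14 are highest on both axes in both panels; the high and low arrays do not overlap in leukocyte markers and overlap in macrophage markers, where male 17 at 8.56 lies below male 15 at 8.80.

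In liver the same 3 genes had lower means on the low level, but with all arrays overlapping. UBD read 8.62 in female 19, 7.59 in female 20, 8.96 in male 14 and 7.92 in male 17 on the high level (8.27 ± 0.63, SD, n = 4). On the low level it read 7.74 in female 18, 6.03 in female 21, 7.28 in male 15 and 8.04 in male 16 (7.27 ± 0.89, SD, n = 4). Liver female 21 was well below the other low arrays. The fitted difference of -0.999 ± 0.47 (log2, SE) became -0.57 without it.

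GBP2 in liver read 6.66 in female 19, 4.97 in female 20, 6.25 in male 14 and 4.67 in male 17 on the high level (5.64 ± 0.97, SD, n = 4). The low arrays read 5.33 in female 18, 4.66 in female 21, 5.03 in male 15 and 4.77 in male 16 (4.95 ± 0.30, SD, n = 4). Only female 19 and male 14 stood above all the low arrays. The fitted difference was -0.69 ± 0.48 (log2, SE), with a range from -1.11 without female 20 to -0.27 without female 19.

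IRF1 in liver read 8.63 in female 19, 7.94 in female 20, 8.57 in male 14 and 7.93 in male 17 on the high level (8.27 ± 0.38, SD, n = 4). Its low-level values were 8.45 in female 18, 7.54 in female 21, 7.99 in male 15 and 7.42 in male 16 (7.85 ± 0.47, SD, n = 4). The 5 highest arrays, from female 19 through male 14, female 18 and male 15 to female 20, came in the same order for IRF1 and GBP2. The fitted difference of IRF1 was -0.42 ± 0.29 (log2, SE), from -0.65 without female 18 to -0.19 without female 21.

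ISG15 and MX1 had the opposite sign in liver. ISG15 read 7.42 in female 19, 5.57 in female 20, 8.05 in male 14 and 6.98 in male 17 on the high level (7.01 ± 1.05, SD, n = 4), and 8.04 in female 18, 7.40 in female 21, 6.62 in male 15 and 7.10 in male 16 on the low level (7.29 ± 0.59, SD, n = 4). MX1 read 9.06, 7.51, 9.93 and 8.84 on the same high arrays (8.83 ± 1.003, SD, n = 4) and 9.70, 9.09, 8.95 and 9.18 on the same low arrays (9.23 ± 0.33, SD, n = 4). Female 20 was lowest for both genes. The fitted differences were 0.28 ± 0.45 for ISG15 and 0.40 ± 0.40 for MX1 (log2, SE), and without female 20 they were -0.18 and 0.009, while without male 17 they were 0.017 and 0.12, so that neither value held its size against the loss of 1 array. Low minus high was 1.23 in females and -0.66 in males for ISG15, and 1.11 and -0.32 for MX1, whose low females both exceeded the high ones. Whether these responses differ between the sexes was not tested.

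IFIT2 in liver read 6.86 in female 19, 6.27 in female 20, 6.29 in male 14 and 6.15 in male 17 on the high level (6.39 ± 0.32, SD, n = 4). At the low level the values were 6.20 in female 18, 6.20 in female 21, 6.53 in male 15 and 6.54 in male 16 (6.37 ± 0.19, SD, n = 4). Both high females exceeded both low females, and both low males exceeded both high males, so that the fitted difference over both sexes was -0.02 ± 0.16 (log2, SE). These values are of the brightest probe set. By the second IFIT2 probe set, the arrays of the feeding levels overlapped in each sex.

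Every low liver array lay below every high one for none of the 6 genes and for 3.11% of the 12617 probe sets tested in liver. The differences of 4 genes lay below 0 and those of 2 above it, with a median of -0.22 (log2) beside -0.010 over all probe sets. limma called 0 probe sets (0%) for feeding in liver, with 1455 at an unadjusted p below 0.05. Summed leukocyte markers in liver ran from 9.28 to 9.98 on the low arrays and from 9.64 to 9.97 on the high arrays, and macrophage markers from 12.99 to 13.34 and from 12.82 to 13.41.

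**Figure D4:**
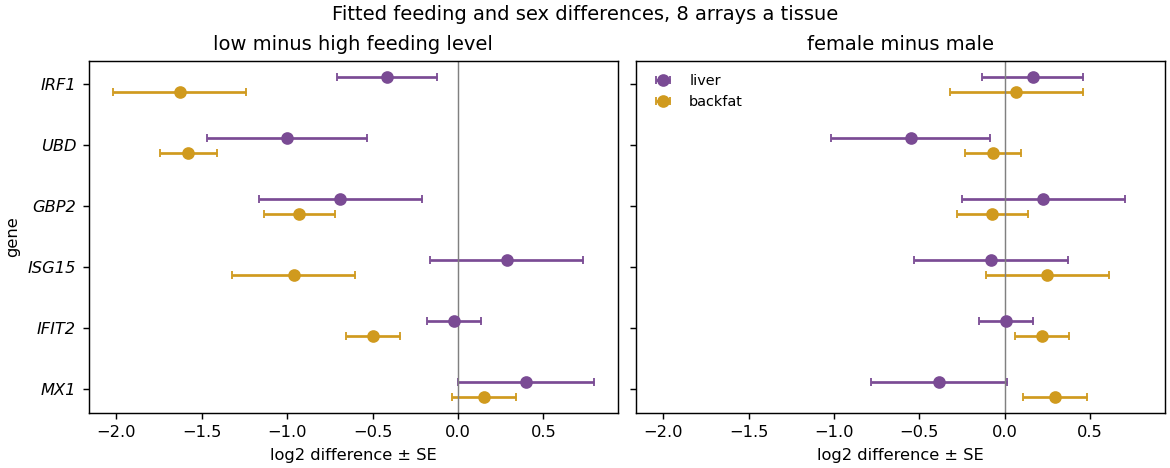
Fitted log2 differences (x axis, points with bars of 1 SE) of the 6 genes in liver and backfat, 8 arrays a tissue, for low minus high feeding level on the left and female minus male on the right. In backfat IRF1, UBD and GBP2 lie at -1.63, -1.58 and -0.93 for feeding, and for sex the points lie between -0.55 (UBD in liver) and 0.29 (MX1 in backfat).

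The tissues differed most for GBP2 and MX1, in opposite directions. GBP2 ran from 7.30 to 8.78 in backfat (7.995 ± 0.56, SD, n = 8) and from 4.66 to 6.66 in liver (5.29 ± 0.76, SD, n = 8), with no overlap and a 6.51-fold higher mean in backfat. Such separation was not particular to GBP2, since of 46 other pathway genes tested 8 were higher and 10 lower in backfat with no overlap. The share over all probe sets was not counted, but limma called 75.7% of them for tissue. MX1 ran from 6.94 to 7.97 in backfat (7.61 ± 0.33, SD, n = 8) and from 7.51 to 9.93 in liver (9.03 ± 0.72, SD, n = 8), a 2.68-fold higher mean in liver. Only liver female 20 lay within the backfat range of MX1.

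The other 4 genes overlapped between the tissues. Backfat minus liver was -0.62 ± 0.26 (log2, SE) for IRF1, -0.36 ± 0.31 for ISG15, 0.38 ± 0.27 for UBD and 0.52 ± 0.11 for IFIT2, beside 2.70 ± 0.28 for GBP2 and -1.42 ± 0.24 for MX1. Without backfat female 21 it was -0.77 for IRF1, -0.57 for ISG15, 0.40 for UBD, 0.50 for IFIT2, 2.60 for GBP2 and -1.42 for MX1. The median of the 6 genes was 0.009, and that of all 13962 probe sets tested was 0.15.

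Ordered over tissue and feeding level together, IRF1 was highest in liver high (8.27), backfat high (8.26) and liver low (7.85), whose arrays overlapped from each group to the next, and the backfat low arrays (6.63) lay below the liver low arrays with no overlap. UBD ran from backfat high (8.94) to liver high (8.27), which overlapped, and then to backfat low (7.37) with no overlap and liver low (7.27), which overlapped it. GBP2 ran from backfat high (8.46) to backfat low (7.53) and then liver high (5.64), each step with no overlap, and ended with liver low (4.95), which overlapped liver high. For ISG15, IFIT2 and MX1 each group overlapped the next in order. ISG15 ran from liver low through backfat high and liver high to backfat low, IFIT2 from backfat high through backfat low and liver high to liver low, and MX1 from liver low through liver high and backfat low to backfat high.

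Sex does not enter the rule by which the genes were chosen and was taken as independent of it, but the choice was made with earlier results of these data known. None of the 6 genes passed limma's test for sex in either tissue at a Benjamini-Hochberg adjusted p below 0.05, and none had an unadjusted p below 0.05. Of all probe sets tested, limma called 4.53% for sex in liver and 0.110% in backfat. Female minus male in liver was -0.55 ± 0.47 for UBD (log2, SE, 95% interval -1.66 to 0.56, limma adjusted p = 0.597) and -0.39 ± 0.40 for MX1 (-1.33 to 0.56, limma adjusted p = 0.676). It was 0.23 ± 0.48 for GBP2, 0.16 ± 0.29 for IRF1, -0.08 ± 0.45 for ISG15 and 0.005 ± 0.16 for IFIT2, with adjusted p-values from 0.831 to 0.992. In backfat the differences closest to the threshold were those of MX1, 0.29 ± 0.19 (-0.15 to 0.74, limma adjusted p = 0.854), and IFIT2, 0.22 ± 0.16 (-0.16 to 0.60, limma adjusted p = 0.866).

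In backfat the other 4 genes differed by sex by 0.25 ± 0.36 (ISG15), 0.07 ± 0.39 (IRF1), -0.07 ± 0.21 (GBP2) and -0.07 ± 0.17 (UBD). For UBD in backfat the 95% interval ran from -0.47 to 0.33. Without female 21 the backfat sex differences were -0.17 (ISG15), -0.23 (IRF1), -0.27 (GBP2), -0.03 (UBD), 0.30 (MX1) and 0.20 (IFIT2), so those of ISG15 and IRF1 changed sign, and limma adjusted p-values ran from 0.882 to 0.996. The median over the 6 genes was -0.04 in liver and 0.14 in backfat, beside 0.001 and 0.014 over all probe sets. For none of them did the change in sex difference between the tissues pass the threshold, where limma called 2.21% of all probe sets, with limma adjusted p-values from 0.608 (MX1, a difference of 0.68 ± 0.48) to 0.972 (IRF1). The p-values rest on the spread between arrays of a group, from these animals alone, which limma draws toward that of all probe sets. For the change between the tissues, the liver and backfat arrays of a male entered as independent.

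The genes whose arrays deviated most like each member's were sought among 4942 genes, over the 16 deviations from the tissue means. For GBP2 these were GBP1, a guanylate-binding protein gene beside it in the genome (Pearson's r = 0.913), TAP1, a chain of the peptide transporter of class I antigen display (0.846), and STX11 (0.794), with IRF1 at place 4 (0.775) and UBD at place 9 (0.754). For MX1 they were PARP12 (0.915), RSAD2, which encodes the antiviral enzyme viperin (0.857), and IRF9 (0.836). For ISG15 they were IFIT3, an antiviral gene next to IFIT2 (0.884), GLA (0.823) and PSMD3 (0.793).

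For IRF1 they were FASTKD1 (0.859), LCP1, an actin-bundling protein of leukocytes (0.847), and CD53 (0.843), 1 of the leukocyte markers above. By tissue, r was 0.333 in liver and 0.953 in backfat for FASTKD1, 0.687 and 0.876 for LCP1, and 0.413 and 0.908 for CD53. For UBD they were GNG10 (0.792), PALMD (0.775) and TM2D1 (0.773), with GBP2 at place 5. For IFIT2 they were GEMIN8 (0.879), NUP50 (0.813) and BLNK (0.806). Among the 6 genes, ISG15 and MX1 went together in liver (r = 0.958 over 8 arrays) and had an r of 0.228 in backfat, and IRF1 and GBP2 had 0.862 in liver and 0.907 in backfat. Without backfat female 21 the r of each member with its 3 most like genes ran from 0.589 (ISG15 and PSMD3) to 0.915 (MX1 and PARP12), and those of IFIT2 ran from 0.715 to 0.831. These values describe 16 arrays that share animals and 1 normalization, and the feeding difference enters them.

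Some members have close relatives beside them. In the RefSeq gene order of the pig assembly Sscrofa11.1, GBP2 lies next to GBP1 and IFIT2 next to IFIT3 and IFIT1, and MX2 is the neighbour of MX1, with each of these relatives on the array. A probe set can pick up the message of a close relative, which was not tested here. For feeding in backfat, the fitted differences of these relatives had the sign of their neighbours, but none of the relatives passed limma's test. That of MX1, 0.15 ± 0.19 (log2, SE), was smaller than its SE, so its sign is not settled. MX2 differed by 0.53 ± 0.20 (log2, SE, low minus high, limma adjusted p = 0.412), beside 0.15 for MX1. GBP1 differed by -0.84 ± 0.31 (limma adjusted p = 0.411), beside -0.93 for GBP2. IFIT1 differed by -0.18 and IFIT3 by -0.34 (limma adjusted p = 0.616 and 0.586), beside -0.50 for IFIT2. Between tissues MX2 and MX1 went opposite ways. MX2 was at least 4.44-fold higher in backfat, where MX1 had the lower mean.

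The lists held 113 further gene names of the interferon pathway, some of them an old and a new name of the same gene. Of these names, 58 were on the array. In backfat 41 were tested for feeding and limma called 0 of them, with 7 at an unadjusted p below 0.05. Their differences lay below 0 for 29 and above it for 12, with a median of -0.15 (log2). Every low array lay below every high one for 4, namely CXCL9, GBP1, TAP1 and TBK1, and above every high one for 1, SP110, beside the 3.36% and 3.25% of all probe sets given above. TAP1 differed by -0.86 ± 0.16 (limma adjusted p = 0.198). CXCL9, a chemokine induced by interferon gamma, had only 2 of 4 low arrays above 4, with means of 3.94 on low and 5.43 on high (limma adjusted p = 0.198).

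By role, the gene of lowest p in backfat was the receptor chain IFNAR1 (-0.47 ± 0.15, limma adjusted p = 0.345), the signalling factor STAT2 (-0.50 ± 0.23, limma adjusted p = 0.470), the interferon regulatory factor IRF3 (-0.14 ± 0.15, limma adjusted p = 0.755) and the kinase TBK1 (-0.19, limma adjusted p = 0.557), which acts downstream of nucleic acid sensors. The interferon genes IFNA1, IFNB1 and IFNG, and the feedback inhibitors SOCS1 and SOCS3, were below 4 on all 16 arrays.

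In liver 44 of these genes were tested for feeding and limma called 0, with 6 at an unadjusted p below 0.05 and a median of -0.04 (log2). IFI35, an interferon-induced protein, was the only 1 with every low array below every high one, beside 3.11% of all probe sets (-0.54 ± 0.19, limma adjusted p = 0.375). The immunoproteasome subunit gene PSMB10 differed by -0.79 ± 0.25 (limma adjusted p = 0.349). By role the others of lowest p were IFNAR2 (-0.18), STAT2 (-0.36), IRF8 (0.49) and TBK1 (0.04), with limma adjusted p-values from 0.500 to 0.932.

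For sex, limma called 0 of the 44 in liver and 0 of the 41 in backfat, with 4 and 3 at an unadjusted p below 0.05. Over all probe sets 2419 of 12617 in liver and 766 of 12686 in backfat had such a p. USP18, the protease that removes ISG15 from proteins and damps the type I receptor, came closest. Its liver level was 5.66 ± 0.49 in females and 7.08 ± 0.62 in males (SD, n = 4). The difference was -1.42 ± 0.33 (log2, SE, limma adjusted p = 0.0670). The USP18 levels of the sexes did not overlap in liver. Nothing is read from this lack of overlap, since its share over all probe sets was not counted. USP18 passed the threshold when all 16 arrays entered 1 fit, also with animals as a replicate block, and under a stricter filter. It did not pass without a filter, with quantile normalization, a common median, values under 4 set to 4, or an intensity trend with robust estimation.

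The genes of lowest p in the other lists for sex in liver were IFNGR1 (-0.34, limma adjusted p = 0.264), IRF8 (0.29, 0.687), TBK1 (-0.28, 0.313), PLSCR1 (0.84, 0.189) and PSME2 (-0.39, 0.151). In backfat they were IFNAR2 (-0.33), TYK2 (-0.17), IRF2 (0.16), MYD88 (0.66), MX2 (-0.54) and ICAM1 (-0.89), with limma adjusted p-values from 0.772 to 0.913.

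Between the tissues, limma called 16 of 46 pathway genes higher and 20 lower in backfat, where 75.7% of all probe sets were called, 43.6% higher and 32.2% lower. Their median difference was -0.11 (log2), beside 0.15 over all probe sets. All 4 receptor chains tested were higher in backfat. IFNGR1 was higher by 2.12 ± 0.14 (log2, SE, limma adjusted p = 5.80e-08), IFNAR2 by 0.48 ± 0.13, IFNAR1 by 0.42 ± 0.13, and IL10RB, shared with type III interferon receptors, at least 1.57-fold. All 4 interferon regulatory factors tested were lower in backfat. IRF3 and IRF2 each differed by -1.36, IRF8 was at least 1.71-fold lower and IRF7, above 4 on 1 backfat and 5 liver arrays, differed by -0.58.

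The signalling genes split, with JAK1 (1.02 ± 0.10), PIAS1 (0.88) and TYK2 (0.28) higher in backfat and STAT2 (-1.36 ± 0.15) and IRF9 (-0.85) lower. Among the sensors, DDX58, which encodes the RNA sensor RIG-I, was lower in backfat (-1.47 ± 0.27), as was TBK1 (-0.72), while the adaptor MYD88 was higher (0.92). Of 13 other antiviral genes 4 were higher and 6 lower, with IFIT1 (1.51 ± 0.19) and OAS1 (1.54 ± 0.23) higher, MX2 as above, and IFI35 (-1.21 ± 0.12) lower and XAF1 at least 4.85-fold lower. Of 14 genes of the interferon gamma and class I list 4 were higher and 6 lower, with GBP1 (2.25 ± 0.38) and WARS (1.39 ± 0.16) higher, TAPBP (-1.73 ± 0.19) and CXCL9 (-2.31 ± 0.33) lower and CASP1 at least 2.16-fold lower.

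**Figure D5:**
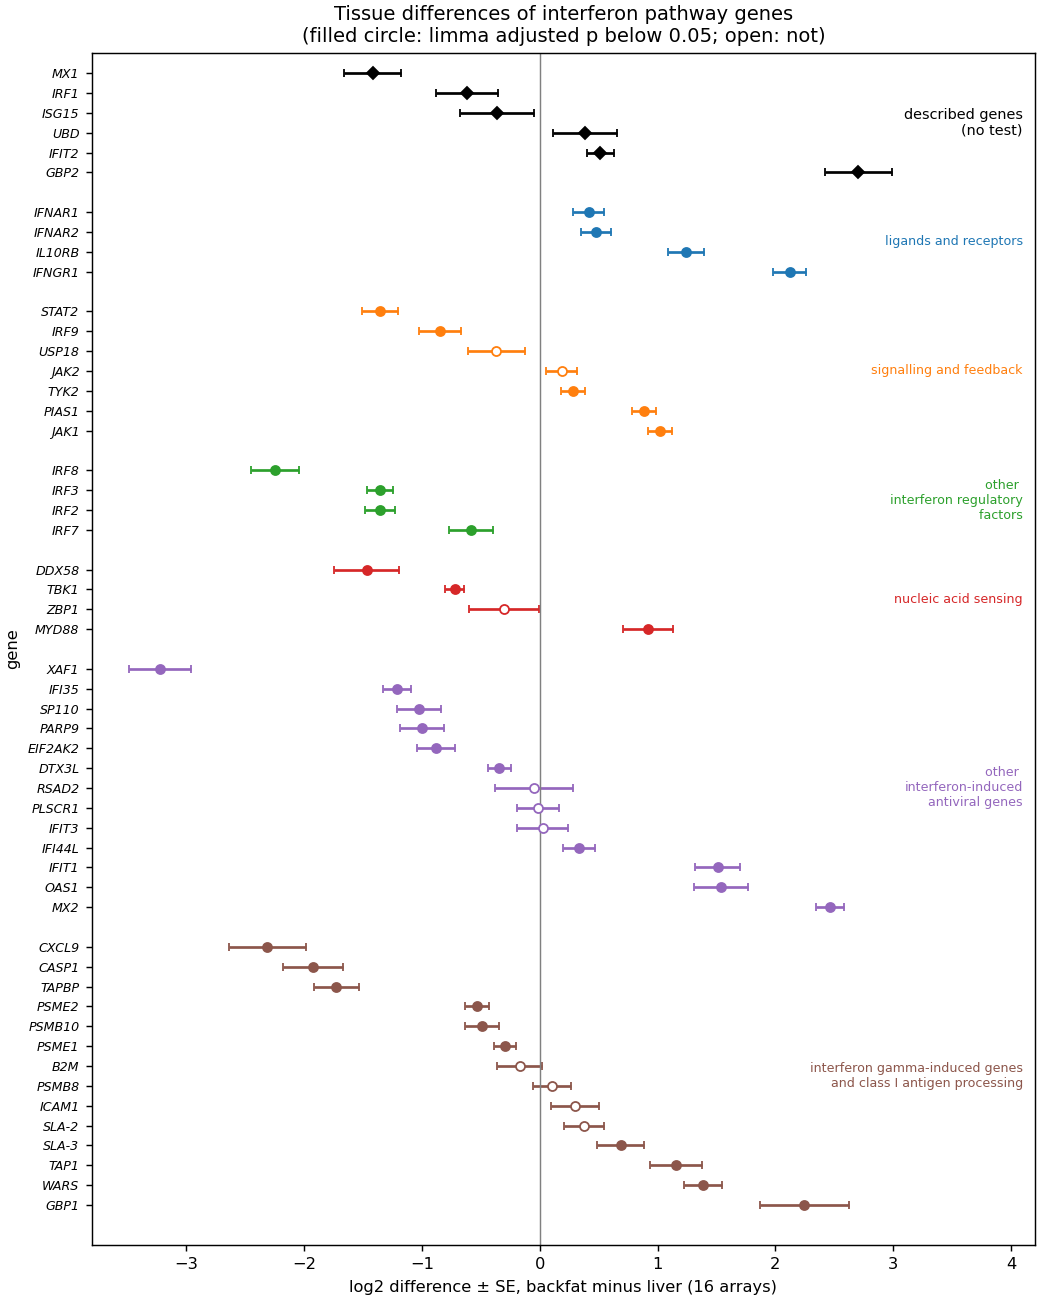
Log2 difference of backfat minus liver (x axis, points with bars of 1 SE, 16 arrays) for the 6 described genes (black diamonds, not tested) and for the other pathway genes by role (circles, filled where limma's adjusted p was below 0.05). GBP2 at 2.70 and GBP1 at 2.25 lie to the right and MX1 at -1.42 to the left; IL10RB, MX2, IRF8, XAF1 and CASP1 are drawn at their measured difference although 1 tissue was below 4 throughout, so that the text gives their folds as lower bounds.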

How the data were processed

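Labelled RNA of 16 liver and backfat samples was put on porcine Affymetrix arrays, as the labels' protocols say. The deposited values are log2 expression made by the authors with GCRMA (background correction, normalization and summary of probes), named in the submitters' processing notes; neither its settings nor its version is stated in those notes. Of 24123 probe sets, 124 controls were left out, 10069 had 1 symbol in the platform annotation, 198 had several and 13732 were not listed, so these are unnamed here. All 6 genes matched RefSeq by Entrez ID.

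Probe sets above 4 on at least 2 arrays of a fit were tested with limma 3.58.1 (lmFit, eBayes) in R 4.3.3, on group means of 8 arrays a tissue, or of 16 for tissue; p-values were adjusted by Benjamini-Hochberg over all of them. A gene is represented by its brightest probe set, here the highest mean over 16 arrays. Where 1 group lay below 4 on every array, a fold is a lower bound, the brighter mean against 4. The members and lists were chosen with earlier results of these data known. The text names all members, up to 5 called genes a list and contrast or the one of lowest p, and the 3 genes most like each member; pathway genes whose levels did not overlap were named after their values were seen, as were the single markers. The sex-by-tissue test, and marker sums and likeness without backfat female 21, were added after the data were seen. Alternatives were no filter or a filter at 6, quantile normalization, a common median, values under 4 set to 4, an intensity trend with robust estimation, an additive model, all arrays in 1 fit with or without a replicate block, the mean of a gene's probe sets, and each array left out in turn. With 1 array left out, the lone array of its group was assumed to vary like the others.

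Animal numbers in the titles pair the tissues of males 14 to 17; their deviations from group means correlated at 0.0874 (14 and 17) and 0.0549 (15 and 16). On simulated arrays, changes of 1 and 2 were recovered for 50% and 90% of probe sets for sex in liver (12617 probe sets), 36% and 76% for sex in backfat and 44% and 82% for feeding in backfat (12686 each), and 82% and 98% for tissue (13962), with 11, 10, 5 and 19 false calls. The simulated noise was independent between probe sets and arrays, and 50 probe sets were changed at each size. On the real arrays limma called 75.7% of probe sets for tissue. These shares therefore need not hold for the real fits.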

Additional observations from a re-analysis of the deposited data

Results flagged for a closer look

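Among the 80 groups of 4 or 8 arrays examined for a value that stands apart by Dixon's ratio, 10 did. Chance gives about 1 in 20 for a single group of normally spread values. The groups of a probe set share arrays, so that 1 array can be flagged more than once. The 10 are therefore not set against that rate. ISG15 in backfat female 21 was 8.83, with the next array of backfat at 7.17. MX1 in liver female 20 was 7.51, with the next liver array at 8.84. IFIT2 in liver female 19 was 6.86 by its brightest probe set, against 6.27 for the next female, and 6.81 by the second probe set, against 6.03 for the next high array.

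The dimmest IFIT2 probe set gave the other 6 cases. It read 3.98 in liver male 15, apart from all liver arrays, from the low ones and from the males, which is still below 4. It read 5.75 in backfat female 21, apart from all backfat arrays, from the high ones and from the females, with the next array at 3.67.

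By its brightest probe set, IFIT2 in liver differed by feeding in opposite directions in the sexes. Low minus high was -0.365 (log2) in females and 0.319 in males, with both arrays of each group on the same side. The second probe set gave -0.229 in females and 0.084 in males, with overlapping arrays in each sex. Every probe set was searched for such a pattern in both tissues, and its rate by chance was not worked out. The difference between the sexes in the feeding response was not tested for IFIT2.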

How the results depend on the processing

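The number of arrays, 2 a group, limits the precision of every difference. The 6 genes kept their side of the threshold for sex under every alternative run on them, which leaves out the filters. With 2 arrays a group, leaving 1 out cannot shift a fitted feeding or tissue difference by as much as the SD between arrays. The size of such shifts is therefore not read as stability. ISG15 in liver changed sign for feeding without female 20 (-0.18). IFIT2 in liver did so without female 19 (0.12) or male 14 (0.012) and with the mean of its probe sets (0.027). IFIT2 for sex in liver turned to -0.026 with arrays shifted to a common median. With 1 array left out, sex differences ranged in liver from -0.198 to 0.648 (GBP2), -0.142 to 0.152 (IFIT2), -0.067 to 0.391 (IRF1) and -0.544 to 0.379 (ISG15), and in backfat from -0.272 to 0.126 (GBP2), -0.303 to 0.438 (IRF1), -0.166 to 0.664 (ISG15) and -0.194 to 0.057 (UBD). Sex in liver gave 572 probe sets, 333 with no filter, 907 with all 16 arrays in 1 fit, 910 with the replicate block as well, and 177 to 449 with 1 array left out. Sex in backfat gave 14, then 27 in the fit of all arrays and 26 with the replicate block. Feeding gave 0 in liver, 11 in the fit of all arrays, 11 with the replicate block and 0 to 1 with 1 array left out; in backfat it gave 0, then 53, 54 with the replicate block, 1 in the additive model and 0 to 1. The sex by feeding interaction in liver gave 0 to 1 with 1 array left out. Of the pathway genes for sex in liver, 1 (USP18) was called with a filter at 6, in the fit of all arrays and with the replicate block, and 0 to 1 with 1 array left out (SLA-2, without male 14). The replicate block, with a consensus correlation of 0.0257, called no other pathway gene for sex or feeding and 0 probe sets for either interaction, and gave 10588 against 10572 for tissue. The causes were not tested.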
